A study of Caenorhabditis elegans with 6 samples.

Results

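The genes described here are the ligand-gated ion channel genes of the nematode Caenorhabditis elegans whose symbols begin with acr, lgc, glr or nmr. They were chosen by symbol alone, and 78 of the 19512 genes in the deposited table carried such a symbol. There were 20 acr genes, 48 lgc genes, 8 glr genes and 2 nmr genes. A further 9 genes of the annotation with such a symbol had no row in the table and were not analysed here. Messenger RNA came from whole wild-type animals of strain N2, harvested at L4, the last larval stage. Each culture of about 10000 synchronized L1 larvae had been fed for 28 hours on bacteria carrying an empty vector, labelled control, or on bacteria making double-stranded RNA against elt-2, labelled elt-2 RNAi. Each group had 3 libraries, lettered A, B and C. Their values are always given in that order, first for the labelled controls and then for the labelled RNAi libraries. elt-2 codes for an intestinal GATA factor, and the comparison asked which transcripts change when it is knocked down.

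Ligand-gated ion channels open when a transmitter binds to them and so turn a chemical signal into an electrical one. The acr and lgc genes encode subunits of the Cys-loop family, whose nicotinic-type members let cations through when acetylcholine binds, while other members pass anions or answer to GABA, serotonin, dopamine, tyramine or betaine. The glr and nmr genes encode ionotropic glutamate receptor subunits of the AMPA/kainate type and the NMDA type. In the worm these receptors are known from neurons and from body-wall and pharyngeal muscle, and many are made in only a few cells of the animal. For many lgc genes the ligand is not known here, and such genes are named without a role.

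Counts of elt-2, the target of the RNAi, were higher in the labelled RNAi libraries, and control A stood apart in composition. What lay behind the elt-2 counts was not tested, which bears on every direction given here by label. elt-2 itself was counted 233, 48 and 78 times in the labelled controls and 689, 111 and 3070 times in the labelled RNAi libraries. Its level was higher in the labelled RNAi libraries, by 4.60 on the log2 scale (SE 1.16, edgeR quasi-likelihood test, adjusted p = 0.0395, n = 3 against 3). The call was lost without control A (adjusted p = 0.103) or without elt-2 RNAi C (adjusted p = 0.135). Total counts ran from 16568515 to 24168901 in the labelled controls and from 29578175 to 35047530 in the others. Composition differed more than depth, since genes outside the most abundant 3% took 27.2% of the counts in control A and between 6.67% and 13.4% in the other libraries. Deviations of control B and elt-2 RNAi B from their group means ran in opposite directions, with a correlation of -0.571 over 11474 genes. Other pairs of a control and an RNAi library lay between -0.207 and 0.346. Such a correlation does not give how far a library lay from its group.

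Because of this difference in composition, levels are given as CPM, counts per 1000000 of a library size scaled by TMM, a method that sets most genes level between libraries. The TMM factors were 3.45, 1.36 and 0.975 for the labelled controls and 0.698, 0.636 and 0.492 for the labelled RNAi libraries. A single count was therefore worth 0.0175 CPM in control A and 0.058 CPM in elt-2 RNAi C. Reads came from the 3' ends of transcripts, so a longer transcript is not expected to give more of them, and CPM values of different genes are compared on that basis. All differences are log2 fold changes of the labelled RNAi libraries over those labelled control. Over all tested genes the median difference was -0.12 with TMM, -0.02 with DESeq2 size factors, -0.65 when library size left out the most abundant 3% of genes and -1.76 with library size alone, so a change is read against the median of its own scaling. The animals were sampled whole, so fewer cells of a type and less RNA per cell cannot be told apart.

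The channel genes were rare but mostly detectable transcripts. Of the 78 genes, 76 had at least 1 count in some library, and the exceptions were acr-21 and lgc-7. A count of 0 puts their level no higher than the limit that 3 counts allow, which lay between 0.0525 CPM in control A and 0.174 CPM in elt-2 RNAi C. The median channel gene had 20 counts summed over the 6 libraries, against 184 for the median gene of the whole table. Between 1 and 10 counts in all were found for 29 channel genes, or 37.2% against 15.4% of all genes, and between 11 and 100 for 37, or 47.4% against 19.6%. Only 10 exceeded 100 counts, or 12.8% against 57.1% of all genes. At the same time only 2.56% of the channel genes had no count, against 7.96% of all genes. Counts in every one of the 6 libraries were found for 29 channel genes, or 37.2% against 63.9% of all genes.

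A library detected between 42 and 67 of the 78 genes. The labelled controls had at least 1 count for 67, 59 and 51 of them, and the labelled RNAi libraries for 47, 51 and 42. Control A was the highest and elt-2 RNAi C the lowest, and control C met elt-2 RNAi B at 51. The groups thus touched, with means of 59 against 46.7 genes, and the difference of -12.33 genes had an exact two-sided permutation p of 0.2, where 3 libraries against 3 cannot go below 0.1. By raw total the shallowest library, control A, detected the most of these genes and the deepest, elt-2 RNAi C, the fewest. By TMM-scaled total control A was the largest, at 57122968, and elt-2 RNAi C the smallest, at 17227129. Thinning every library to the smallest total gave expected numbers of 67, 56.3 and 47.5 against 37, 39.9 and 34.2, a difference of -19.94 genes between groups that no longer touched (exact p = 0.1). All genes thinned in the same way gave 16454, 15570 and 14659 against 14195, 13803 and 13384, and did not touch either. Thinning evened the raw totals only and left the difference in composition as it was.

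The whole table moved in the same direction. All genes were detected at 84.3%, 81.4% and 77.5% in the labelled controls and at 76.6%, 74.5% and 73.4% in the labelled RNAi libraries. The like shares of the channel genes were 85.9%, 75.6%, 65.4%, 60.3%, 65.4% and 53.8%. Channel genes are rarer than most, so the 66 of them with 1 to 100 counts in all were set beside the 6826 genes of the table in that range. In that range the channel genes were detected at 86.4%, 74.2%, 62.1%, 57.6%, 62.1% and 50% in the same order of libraries, and all genes at 78.4%, 70%, 59.5%, 58%, 52.3% and 49.5%. The channel genes lay within 10 percentage points of other rare genes in each library. Their part in the difference between the groups, apart from that of rare genes at large, was not tested.

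**Figure D1:**
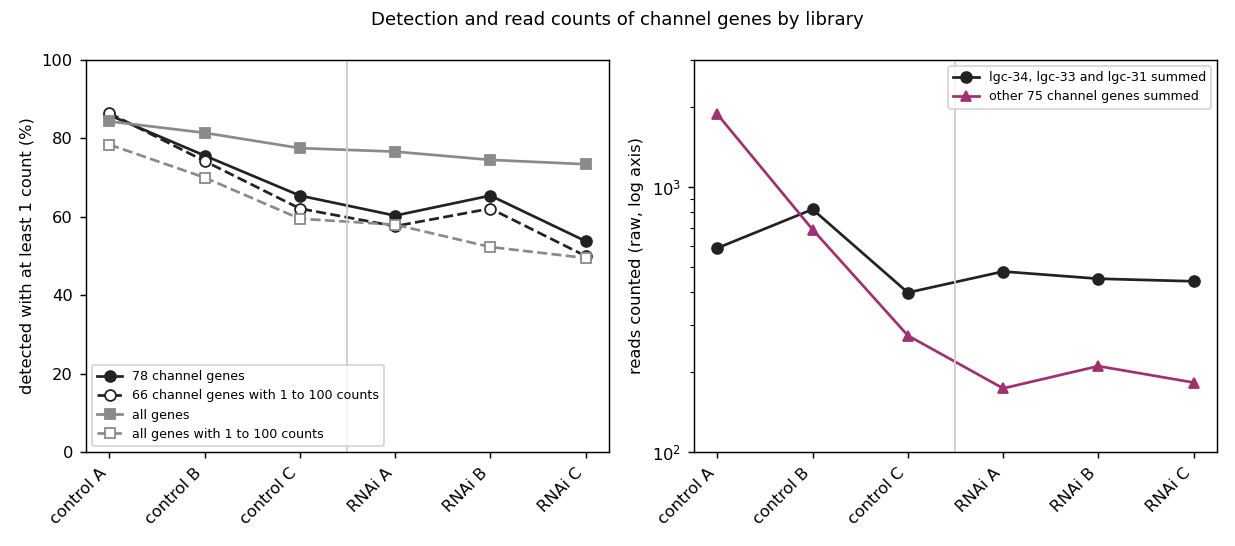
Left, percent of genes with at least 1 count in each library, for the 78 channel genes, all 19512 genes, and the genes of each set with 1 to 100 counts over the 6 libraries; right, raw reads counted on a log axis for lgc-34, lgc-33 and lgc-31 summed and for the other 75 channel genes summed. Lines join the libraries of one gene set and do not stand for an order. Channel genes went from 85.9% in the library labelled control A to 53.8% in that labelled elt-2 RNAi C, and the other 75 genes from 1872 reads to 183.

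At stricter limits the groups separated, for the channel genes and for the whole table. The limits are raw counts and are not scaled for the difference in composition. At least 3 counts were found for 56, 47 and 37 channel genes in the labelled controls and for 22, 23 and 24 in the labelled RNAi libraries. At least 10 counts were found for 40, 23 and 13 against 8, 9 and 8. All 3 labelled RNAi libraries were below every labelled control at both limits, with an exact permutation p of 0.1 for each. The shares of all genes lay apart too, at 76.6%, 73.4% and 67.8% against 66.5%, 64.9% and 63.7% for at least 3 counts, and at 67.5%, 62.1% and 56.6% against 53.8%, 53% and 51.9% for at least 10. The like shares of the channel genes were 71.8%, 60.3% and 47.4% against 28.2%, 29.5% and 30.8%, and 51.3%, 29.5% and 16.7% against 10.3%, 11.5% and 10.3%. Whether the channel genes differed from other rare genes in this was not tested. Among the 76 detected genes, 12 had counts only in libraries labelled control (15.4% of the 78 channel genes, against 8.84% of all genes). The reverse held for lgc-51 alone, with 1 count in elt-2 RNAi B.

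Classes differed in how well they were seen. The acr genes were detected 16, 17 and 15 times of 20 in the labelled controls and 10, 15 and 11 times in the labelled RNAi libraries. The lgc genes were detected 42, 35 and 30 times of 48 against 31, 31 and 26. The glr genes were detected 7, 6 and 5 times of 8 against 4, 3 and 4. Only for the glr genes were the groups apart, and each class holds too few genes for more than these counts. The 2 nmr genes were detected together in control A, elt-2 RNAi A and elt-2 RNAi B, while each other library held reads of one. The median gene had 22 counts over all libraries among acr, 19.5 among lgc, 49.5 among glr and 26 among nmr.

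**Figure D2:**
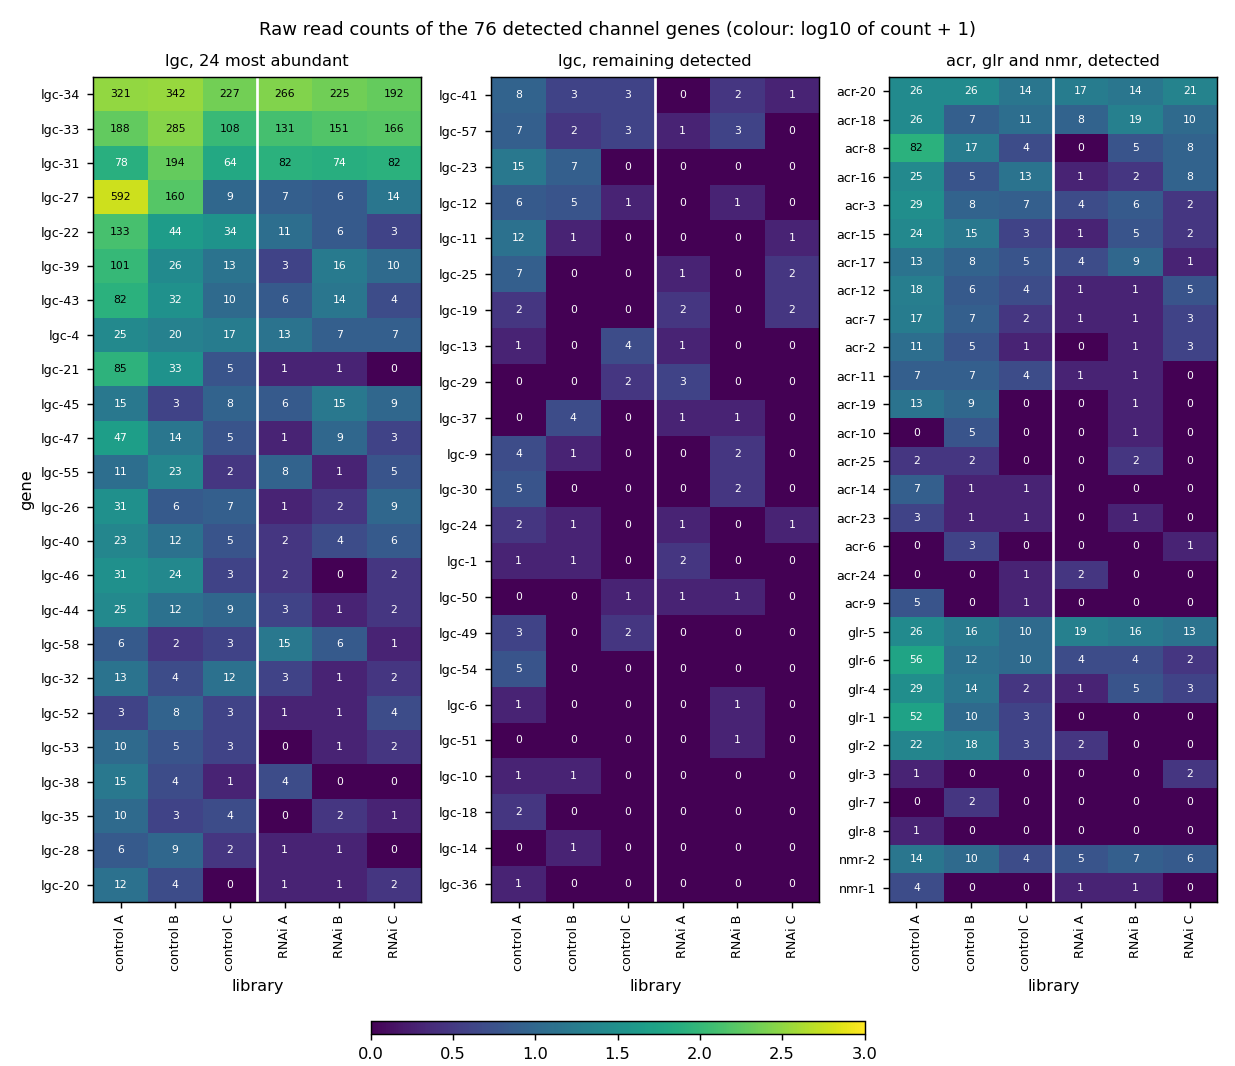
Raw read counts of each of the 76 detected channel genes (rows) in each of the 6 libraries (columns), with colour giving log10 of the count plus 1 and a white line between the labelled groups. lgc-34, lgc-33 and lgc-31 were counted at least 64 times in every library, lgc-27 was counted 592 times in control A, and most other cells held under 30 reads.

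Together the channel genes were counted 2459, 1510 and 674 times in the labelled controls and 653, 661 and 623 times in the labelled RNAi libraries. Before TMM scaling this was 148 reads per 1000000 in control A (Wilson 95% interval 143 to 154), 65.7 in control B (62.4 to 69.1) and 27.9 in control C (25.9 to 30.1). The labelled RNAi libraries gave 22.1 (20.4 to 23.8), 22 (20.4 to 23.7) and 17.8 (16.4 to 19.2) reads per 1000000. Such intervals cover counting error only, with each read taken as independent. PCR copies of 1 molecule could not be told from separate molecules, so the intervals may be too narrow even for that. On this scale the groups did not overlap, but 3.45-fold and 0.492-fold scaling factors stood behind control A and elt-2 RNAi C. After TMM scaling the summed level was 43, 48.2 and 28.6 CPM in the labelled controls and 31.6, 34.6 and 36.2 CPM in the labelled RNAi libraries. The scaled groups overlapped, with a log2 difference of -0.20 and an exact permutation p of 0.5. The log2 difference was -1.66 with library size alone, against a median of -1.76 for all tested genes.

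The sum hid unlike genes. lgc-34, lgc-33 and lgc-31 gave 48.3% of the 6580 reads of all channel genes, and their share of a library's channel reads was 23.9%, 54.4% and 59.2% in the labelled controls and 73.4%, 68.1% and 70.6% in the labelled RNAi libraries. Their summed level was 10.3, 26.2 and 16.9 CPM in the labelled controls and 23.2, 23.5 and 25.5 CPM in the others, with overlap. The remaining 75 genes were counted 1872, 689 and 275 times in the labelled controls and 174, 211 and 183 times in the labelled RNAi libraries. Scaled, they summed to 32.8, 22 and 11.7 CPM against 8.42, 11 and 10.6 CPM. The groups did not overlap, although control C and elt-2 RNAi B were close, and the log2 difference was -1.03 (exact permutation p = 0.1, the smallest possible). Without control A it was -0.69, and over the other alternatives it stayed negative. lgc-27 was among the 75 and gave 592, 160 and 9 of their reads in the labelled controls. In the labelled RNAi libraries it gave 7, 6 and 14. It made up 10.4 of the 32.8 CPM in control A. Whether the sum moved otherwise than other rare genes was not tested.

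The count test could use only the better-covered genes. A filter on low counts (at least 10 reads or so, scaled to library size, in 3 libraries) left 11474 genes of the table, or 58.8%, and 13 channel genes, or 16.7%. A gene high in only 1 group can pass such a filter, so the 13 do not stand for all 78. A gene was called at a Benjamini-Hochberg adjusted p under 0.10 over the 11474 genes, the false discovery rate the study used. Of the 13, 4 were called lower in the labelled RNAi libraries, where 15.9% of all tested genes were called lower, and 0 were called higher, where 13% of all were. The genes called lower were lgc-22, lgc-27, glr-6 and lgc-44. At an unadjusted p under 0.05 the edgeR count was also 4 lower and 0 higher, and DESeq2 called 2 lower and 0 higher. The calls depended on single libraries. Between 0 and 8 channel genes were called lower when 1 library was left out, with 0 without elt-2 RNAi C, 1 without control A or elt-2 RNAi B, 2 without elt-2 RNAi A and 8 of 30 tested without control C. None was called without both replicate B libraries.

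lgc-22 had the most stable fall. The gene lies on chromosome IV from 4301306 to 4304448, plus strand, in the WBcel235 assembly. It was counted 133, 44 and 34 times in the labelled controls and 11, 6 and 3 times in the labelled RNAi libraries. Scaled levels were 2.33, 1.4 and 1.44 CPM against 0.533, 0.314 and 0.174 CPM. Every labelled RNAi library was below every labelled control, and the group means were 1.73 ± 0.523 and 0.34 ± 0.181 CPM (SD, n = 3 each). The log2 fold change was -2.32 (SE 0.56, edgeR adjusted p = 0.035). The gene passed the filter through the labelled controls, where it was high, and without the filter its adjusted p was 0.0451 (edgeR). It was called with each other scaling and with DESeq2 (adjusted p = 0.00553), and lost without elt-2 RNAi B (adjusted p = 0.119), without elt-2 RNAi C (0.167) and without both B libraries (0.104).

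lgc-27, on chromosome II from 4649085 to 4653283, plus strand, was carried by a pair of libraries. It was counted 592, 160 and 9 times in the labelled controls and 7, 6 and 14 times in the labelled RNAi libraries. Scaled levels were 10.4, 5.11 and 0.382 CPM against 0.339, 0.314 and 0.813 CPM. Control A and B were high, control C lay below elt-2 RNAi C, and the groups overlapped. The log2 fold change was -3.45 (SE 1.03, edgeR adjusted p = 0.0587), and the call was lost without control A (log2 fold change -2.58, adjusted p = 0.149) and without any 1 of the labelled RNAi libraries (0.154 to 0.167). A gene on the opposite strand that overlaps it, fut-6, had 50, 16 and 7 counts in the labelled controls and 5, 5 and 2 in the others. Whether counting used strand is not given in the sources used here, so reads of overlapping genes cannot be told apart.

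glr-6 encodes a glutamate receptor subunit of the non-NMDA type and lies on chromosome X. It was counted 56, 12 and 10 times in the labelled controls and 4, 4 and 2 times in the labelled RNAi libraries, which came to 0.98, 0.383 and 0.424 CPM against 0.194, 0.209 and 0.116 CPM. The groups did not overlap, and control A stood highest. The log2 fold change was -1.78 (SE 0.65, edgeR adjusted p = 0.0926). Without control A it was -1.28 (adjusted p = 0.25), and of the 6 fits that left out 1 library only those without control B or control C kept the call. DESeq2 gave an adjusted p of 0.12. The gene passed the filter through the labelled controls, where it was high, and without the filter its adjusted p was 0.155.

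lgc-44, on chromosome V, was counted 25, 12 and 9 times in the labelled controls and 3, 1 and 2 times in the labelled RNAi libraries. Scaled levels were 0.438, 0.383 and 0.382 CPM against 0.145, 0.0523 and 0.116 CPM, with no overlap. Each labelled RNAi library was at or below its floor of 3 counts, and the gene passed the filter through the labelled controls. The log2 fold change was -1.90 (SE 0.64, edgeR adjusted p = 0.0787), but the call was lost in each of the 6 edgeR fits that left out 1 library. With all libraries it was also lost with DESeq2 (adjusted p = 0.13) and with edgeR without the filter (adjusted p = 0.155). F46F3.3, which overlaps it on the opposite strand, had 49, 22 and 6 counts against 1, 5 and 4.

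**Figure D3:**
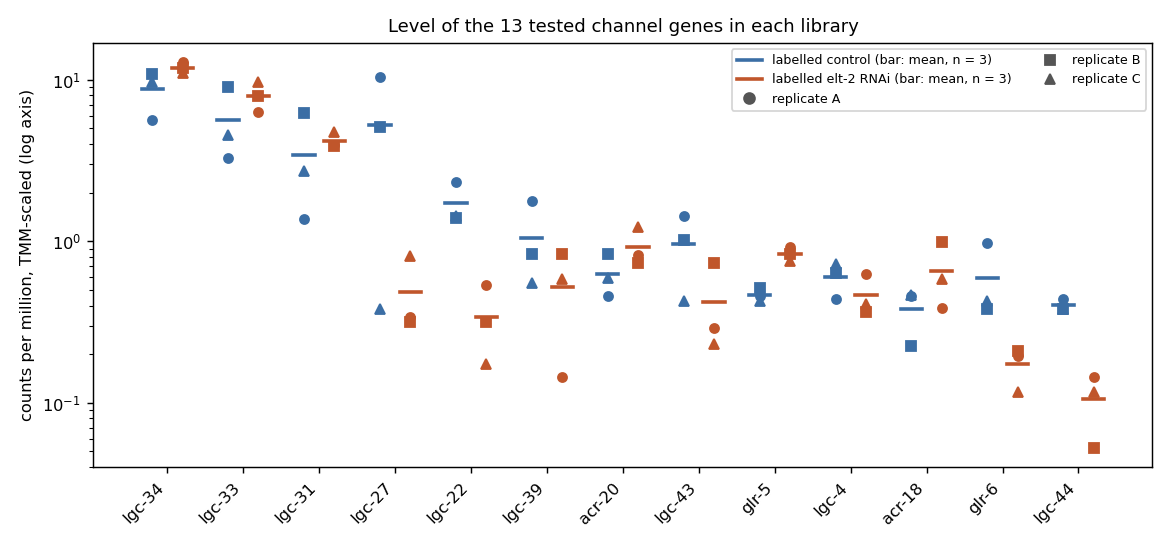
Level of each of the 13 tested channel genes in each library, in CPM on a log axis with TMM scaling; blue, libraries labelled control; orange, labelled RNAi libraries; marker shape, replicate letter; bar, group mean (n = 3). For lgc-22, glr-6 and lgc-44 all orange points lie under all blue points, whereas lgc-27 control C lies among the orange points, and for lgc-34 and glr-5 all orange points lie above the blue ones.

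lgc-34, lgc-33 and lgc-31, the channel genes of highest mean level over the 6 libraries, were not called, although lgc-27 exceeded them all in control A. lgc-34, on chromosome II from 526574 to 530374, plus strand, was counted 321, 342 and 227 times in the labelled controls and 266, 225 and 192 times in the labelled RNAi libraries. Scaled levels were 5.62, 10.9 and 9.63 CPM against 12.9, 11.8 and 11.1 CPM. All labelled RNAi libraries were above those labelled control after TMM scaling, but the log2 fold change of 0.45 (SE 0.36) had an edgeR adjusted p of 0.371. Groups that did not overlap were common, with 22.5% of tested genes non-overlapping and higher and 24.2% non-overlapping and lower. Of the 13 channel genes, 2 were higher in this way, lgc-34 and glr-5, and 3 were lower, lgc-22, glr-6 and lgc-44.

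lgc-33, on chromosome IV from 845498 to 848872, plus strand, was counted 188, 285 and 108 times in the labelled controls and 131, 151 and 166 times in the labelled RNAi libraries. Scaled levels were 3.29, 9.09 and 4.58 CPM against 6.34, 7.9 and 9.64 CPM, with overlap (log2 fold change 0.49, SE 0.44, edgeR adjusted p = 0.428). Control B was the second highest of the 6 libraries and control A the lowest. lgc-31, on chromosome V from 15512765 to 15522020, minus strand, was counted 78, 194 and 64 times against 82, 74 and 82. Its scaled levels were 1.37, 6.19 and 2.72 CPM against 3.97, 3.87 and 4.76 CPM (log2 fold change 0.30, SE 0.54, edgeR adjusted p = 0.702). Control B was again apart and the highest, and the raw counts of the other 5 libraries lay between 64 and 82. The means of lgc-34, lgc-33 and lgc-31 were 8.72 ± 2.76, 5.66 ± 3.05 and 3.42 ± 2.49 CPM in the group labelled control and 11.9 ± 0.878, 7.96 ± 1.65 and 4.2 ± 0.487 CPM in that labelled elt-2 RNAi (SD, n = 3 each). Within a group, lgc-33 could not be separated from its neighbours in this order beyond their spread in the labelled controls, while in those labelled elt-2 RNAi each gene's libraries lay apart from those of the next.

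The other tested genes reached at most 1.77 CPM in any library and did not pass the test. lgc-39, whose product is known as a channel that answers to several transmitters, was counted 101, 26 and 13 times in the labelled controls and 3, 16 and 10 times in the labelled RNAi libraries. Scaled, this was 1.77, 0.83 and 0.552 CPM against 0.145, 0.837 and 0.58 CPM, and the groups overlapped (log2 fold change -1.03, SE 0.72, edgeR adjusted p = 0.313). lgc-43 was counted 82, 32 and 10 times against 6, 14 and 4, also with overlap once scaled (-1.21, SE 0.67, adjusted p = 0.217). In both genes control A held more reads than all other libraries together. lgc-4 was more even, with 25, 20 and 17 counts against 13, 7 and 7 (-0.34, SE 0.52, adjusted p = 0.647).

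acr-20, a nicotinic-type subunit gene, was counted 26, 26 and 14 times in the labelled controls and 17, 14 and 21 times in the labelled RNAi libraries. At 0.455, 0.83 and 0.594 CPM against 0.823, 0.732 and 1.22 CPM its groups overlapped (log2 fold change 0.56, SE 0.49, edgeR adjusted p = 0.417). glr-5, a non-NMDA glutamate receptor subunit gene like glr-6, was counted 26, 16 and 10 times against 19, 16 and 13. Scaled, it lay at 0.455, 0.511 and 0.424 CPM against 0.92, 0.837 and 0.755 CPM, and the groups did not overlap (means 0.463 ± 0.0437 and 0.837 ± 0.0827 CPM, SD, n = 3 each). Its log2 fold change of 0.85 (SE 0.45) had an adjusted p of 0.204, so of the glr genes tested one was called lower and the other was not called. The difference between glr-5 and glr-6 was not tested. The remaining tested gene, acr-18, had 26, 7 and 11 counts against 8, 19 and 10 (0.76, SE 0.59, adjusted p = 0.355).

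Of the 13 tested genes, 7 had a negative and 6 a positive log2 fold change with TMM, and these signs depend on the scaling. With library size alone all 13 were negative, but lgc-34, lgc-33, lgc-31, acr-20, acr-18 and glr-5 lay between -1.06 and -0.78, less negative than the median of -1.76 for all tested genes. When library size left out the top 3% of genes, lgc-34 (-0.05) and lgc-31 (-0.17) were negative, against a median of -0.65. lgc-31 was also negative without control A (-0.18). Relative to the median of their scaling, those 6 genes were above it and lgc-22, lgc-27, glr-6 and lgc-44 below it in each of the scalings tried.

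**Figure D4:**
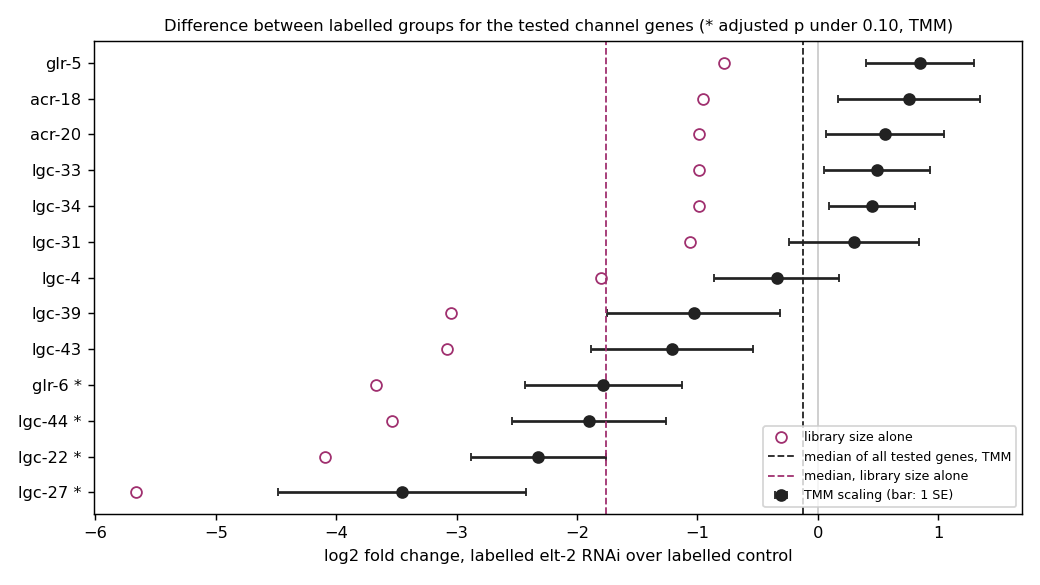
Log2 fold change, labelled RNAi libraries over those labelled control, for the 13 tested channel genes. Filled points with bars give the edgeR estimate and 1 SE with TMM scaling, open points the estimate with library size alone, dashed lines the median of 11474 tested genes in each scaling (-0.12 and -1.76), and asterisks an adjusted p under 0.10 with TMM. The 4 called genes lie left of both medians in their own scaling and 6 genes lie right of them.

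Below the filter were 63 detected channel genes. Their mean scaled level was lower in the labelled RNAi libraries for 45 of them, or 71.4%, and 66.8% of all detected genes below the filter were lower, so the direction was that of rare genes at large. Among the 76 detected channel genes, 52 had a lower mean (68.4%, against 58.2% of all detected genes). The groups did not overlap for 11 that were lower, or 14.5%, where 19.2% of all detected genes were so, and for 2 that were higher, or 2.63%, where 16.3% were. When the filter was dropped and 17958 genes were fitted, 4 of 76 channel genes were called lower and 0 higher by edgeR, where 9.65% and 8.41% of all genes were. These 4 were lgc-27, lgc-22, lgc-21 and glr-1.

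glr-1 encodes the AMPA-type subunit best known from the command interneurons that drive forward and backward movement. It was counted 52, 10 and 3 times in the labelled controls and 0 times in each labelled RNAi library. Scaled, control A, B and C had 0.91, 0.319 and 0.127 CPM. Pooled over its group the level labelled control was 0.58 CPM, and 3 counts over the pooled elt-2 RNAi group correspond to 0.0526 CPM. The pooled control level was thus 11-fold that floor. Such a ratio leaves out the counting error and the spread of the labelled controls, so it is no bound on the difference. Without control A, which held 52 of the 65 reads, the pooled level was 0.237 CPM and the ratio 4.5-fold, a value added after seeing the data. Its adjusted p without the filter was 0.0419 (edgeR). Control C, with 3 reads, was at its own floor. glr-2, a related subunit chosen for mention after its values were seen, was counted 22, 18 and 3 times against 2, 0 and 0, with an adjusted p of 0.11 without the filter.

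lgc-21, also chosen after its values were seen, was counted 85, 33 and 5 times in the labelled controls and 1, 1 and 0 times in the labelled RNAi libraries. The groups did not overlap, and its adjusted p without the filter was 0.0281 (edgeR). Among the 12 genes with reads only in libraries labelled control, glr-1 had 65 reads and lgc-23 had 22, and the other 10 had 9 or fewer. lgc-23, with 15, 7 and 0 reads in the labelled controls, had a pooled control level 3.73-fold the same floor, and 2.42-fold without control A. Its control C was at 0 like the labelled RNAi libraries, and its adjusted p without the filter was 0.135 (edgeR). acr-14 had 7, 1 and 1 reads and a pooled control level 1.53-fold the floor, and without control A its 2 reads were under the floor. Its adjusted p without the filter was 0.209 (edgeR).

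Of textbook acetylcholine receptor subunits, acr-16, acr-12 and acr-2 had few reads and did not pass the filter. acr-16, the subunit of the levamisole-insensitive receptor of body-wall muscle, was counted 25, 5 and 13 times in the labelled controls and 1, 2 and 8 times in the labelled RNAi libraries. Scaled, it lay at 0.438, 0.16 and 0.552 CPM against 0.0484, 0.105 and 0.464 CPM, so that elt-2 RNAi C was among the labelled controls. acr-12, a subunit of motor neuron receptors, was counted 18, 6 and 4 times against 1, 1 and 5, and elt-2 RNAi C again lay within the other group, at 0.29 CPM. acr-2, which works in cholinergic motor neurons, was counted 11, 5 and 1 times against 0, 1 and 3, with overlap. acr-8, of the levamisole receptor family and chosen after its values were seen, had 82 of its reads in control A and 17, 4, 0, 5 and 8 in the other libraries.

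Among lgc genes with a known ligand, lgc-46, an acetylcholine-gated anion channel that acts at presynaptic sites, was counted 31, 24 and 3 times in the labelled controls and 2, 0 and 2 times in the labelled RNAi libraries. At 0.543, 0.766 and 0.127 CPM against 0.0968, 0 and 0.116 CPM its groups did not overlap, although control C and elt-2 RNAi C were within a single read of each other, and its adjusted p without the filter was 0.126 (edgeR, log2 fold change -2.65). lgc-53, a dopamine-gated anion channel, was counted 10, 5 and 3 times against 0, 1 and 2. Its groups did not overlap, but its adjusted p without the filter was 0.421 (edgeR). lgc-35, a GABA-gated cation channel, was counted 10, 3 and 4 times against 0, 2 and 1. lgc-55, the tyramine-gated anion channel of the escape response, was counted 11, 23 and 2 times against 8, 1 and 5, with overlap. lgc-50, a serotonin-gated cation channel that has a role in learning in the worm, had 1 read each in control C, elt-2 RNAi A and elt-2 RNAi B and none elsewhere. Without the filter, none of lgc-35, lgc-50, lgc-53 and lgc-55 was called (edgeR adjusted p from 0.421 to 0.781). At such low counts this does not show equal levels.

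The NMDA-type subunits were as rare. nmr-1 was counted 4, 0 and 0 times in the labelled controls and 1, 1 and 0 times in the labelled RNAi libraries. nmr-2 was counted 14, 10 and 4 times against 5, 7 and 6, or 0.245, 0.319 and 0.17 CPM against 0.242, 0.366 and 0.348 CPM, and overlapped. Unlike glr-1 and glr-2, nmr-2 kept reads in every library, although the difference between these genes was not tested. hrde-2, which overlaps nmr-2 on the opposite strand, had 447, 204 and 199 counts against 142, 135 and 84. Reads of nmr-2 and hrde-2 cannot be told apart where use of strand is not given.

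Position gave some features that the choice by symbol had not used. Of the 78 genes, 24 lie on chromosome X, or 30.8% against 13.7% of the protein-coding genes in the table. Another protein-coding gene overlaps 25 of them, or 32.1% against 27.9% of protein-coding genes, and reads of such a pair may be split or misassigned. Neighbours at most 5000 bases apart and on the same strand were acr-2 with acr-3 (229 bases between them on X), lgc-23 with lgc-24 (1116 bases on X), lgc-13 with lgc-14 (212 bases on X) and lgc-1 with lgc-29 (162 bases on V). Their summed counts over the 6 libraries were 21 and 56, 22 and 5, 6 and 1, and 4 and 5, so no pair held an abundant gene.

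Among channel genes of other names, 3 glutamate-gated chloride channel genes fell. A list of 28 such genes, among them receptors of acetylcholine, GABA, serotonin and glutamate, had 25 in the table, 7 of them tested, and 3 were called lower and 0 higher by edgeR, where 15.9% and 13% of all tested genes were. At an unadjusted p under 0.05 and with DESeq2 the counts were 4 lower and 0 higher. The median log2 fold change of those 7 was -1.38, against -0.12 for all tested genes, but genes high only in the labelled controls could pass the filter, so neither the median nor the signs stand for the list. glc-2, chosen after its values were seen and left out by the filter, went the other way, with 1, 5 and 7 counts against 13, 13 and 12 (0.0175, 0.16 and 0.297 CPM against 0.629, 0.68 and 0.697 CPM, without overlap). The summed level of the 25 ran from 13.1 to 23 CPM in the labelled controls and from 6.25 to 8.94 CPM in those labelled elt-2 RNAi, without overlap. The called genes encode subunits of the channels that ivermectin targets. glc-1 was counted 246, 76 and 76 times in the labelled controls and 22, 11 and 1 times in the labelled RNAi libraries (log2 fold change -2.53, SE 0.75, adjusted p = 0.0582). avr-15 was counted 211, 76 and 77 times against 22, 33 and 14 (-1.38, SE 0.43, adjusted p = 0.066). avr-14 was counted 136, 38 and 26 times against 8, 15 and 3 (-1.80, SE 0.64, adjusted p = 0.0871). In each the groups did not overlap after scaling.

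Genes that assemble or anchor receptors and genes that make or move transmitters had 1 call each, where 15.9% of all tested genes were called lower and 13% higher. Of 20 assembly and accessory genes, 17 were in the table and 12 tested, with 1 called lower, 0 higher and a median log2 fold change of -0.71. The called gene was unc-50, which acetylcholine receptors need for their transport to the surface, with 814, 288 and 206 counts in the labelled controls and 77, 103 and 94 in the labelled RNAi libraries (log2 fold change -1.14, SE 0.36, edgeR adjusted p = 0.0659). Of 15 transmitter genes, 13 were in the table and 5 tested, with 1 called lower, 0 higher and a median of 0.25. That gene was snf-11, a GABA transporter, with 177, 73 and 14 counts against 6, 7 and 13 (-2.11, SE 0.70, adjusted p = 0.0761), and its groups overlapped. An unadjusted p under 0.05 and DESeq2 gave the same counts for each of these lists, which were 3 lower and 1 higher for assembly and 1 lower and 0 higher for transmitters. The calls of all 3 lists depended on single libraries, with 0 called lower without control A, elt-2 RNAi B or elt-2 RNAi C.

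Some markers of whole tissues were called, and their part in the channel results was not tested. The shares of all tested genes, 15.9% lower and 13% higher, stand beside each count. Of 18 neuronal genes, all in the table and none at 0 throughout, 17 were tested, 5 were called lower and 0 higher, and their median log2 fold change was -0.44. An unadjusted p under 0.05 and DESeq2 each gave 5 lower and 1 higher. Their summed level, from 89.3 to 135 CPM in the labelled controls and from 93.6 to 130 CPM in the others, overlapped. The 4 with the smallest p were unc-119 (-1.68, adjusted p = 0.0369), unc-13, a synaptic vesicle priming factor (-1.92, 0.0548), snb-1, or synaptobrevin (-1.12, 0.0664), and the kinesin gene unc-104 (-1.36, 0.0772), by edgeR. Of 15 muscle genes, all tested and none at 0, 0 were called lower and 3 higher, unc-22, myo-2 and unc-89 (1.44, 1.12 and 1.80, adjusted p = 0.0409, 0.0788 and 0.0929), and their median was 0.84. At an unadjusted p under 0.05 there were 0 lower and 6 higher, and with DESeq2 0 and 7. Their summed level was 586, 1095 and 3335 CPM in the labelled controls and 4083, 3196 and 3362 CPM in the labelled RNAi libraries, so that control A and B were low and control C lay among the others.

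The other marker lists had calls in both directions. Of 14 intestinal genes, 13 were in the table and tested, with 1 called lower and 3 higher, elt-2 among the latter, and a median of 0.32. Of 13 epidermal genes, 11 were tested, with 2 called lower, 1 higher and a median of 0.22. Of 15 germline genes, 14 were tested, with 2 called lower, 1 higher and a median of 0.61. The summed germline level ran from 268 CPM in control A to 1070 CPM in control C and from 1517 to 2040 CPM in the labelled RNAi libraries, without overlap. Whether the channel genes moved with these tissues was not tested.

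**Figure D5:**
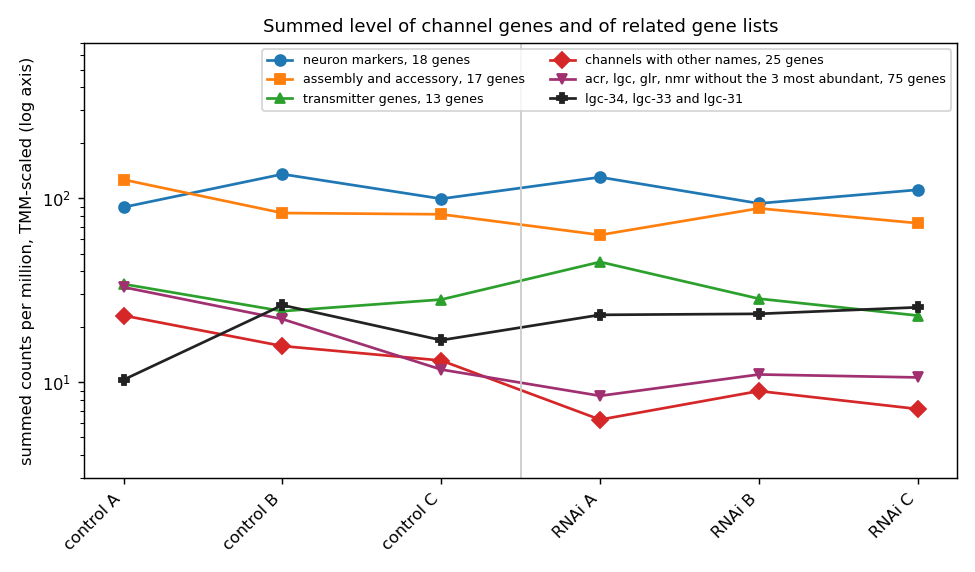
Summed level in each library, in CPM with TMM scaling on a log axis, of lgc-34, lgc-33 and lgc-31, of the other 75 channel genes, and of 4 related gene lists; lines join the libraries of one list and do not stand for an order. The other 75 channel genes (8.42 to 11 CPM in the labelled RNAi libraries, 11.7 to 32.8 in those labelled control) and the channels with other names (6.25 to 8.94 against 13.1 to 23) do not overlap between the groups, and the neuronal markers (93.6 to 130 against 89.3 to 135) do.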

How the data were processed

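3SEQ libraries, which read the 3' ends of poly-A RNA, were made from 6 whole-worm cultures. The deposited values are raw counts of uniquely mapped reads for each gene, with a column per library. The submitters' processing notes name Bowtie 0.12.7. The genome build, annotation, counter and use of strand are not given in the sources used here. Each deposited column was matched to its library by its name, and 0 columns were left out. Sequence names were paired with WBcel235 symbols and positions (Ensembl release 115) for 19081 of 19512 genes.

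Genes were filtered with filterByExpr in edgeR 4.0.16 (R 4.3.3) and scaled by TMM, and the labelled groups were compared over all 11474 genes by the two-sided quasi-likelihood test with Benjamini-Hochberg adjustment. The SE is the size of the log2 fold change over the root of the F statistic. The study itself used a rank product test on reads scaled by library size at the same false discovery rate, which was not rerun. Single values per library were compared by exact permutation tests. The test was tried on simulated data in which all libraries shared their composition, apart from genes changed on purpose. That trial does not cover the difference in composition seen here. Alternatives changed the scaling (library size with or without the top 3% of genes), the tool (DESeq2 1.42.0), the filter (none, or 10 counts in each library), the model (letter as a replicate block), the threshold (0.05) or the libraries used. The p-values measure the spread between the labelled cultures.

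The genes and lists were chosen with earlier results of these data known. The rule was to name with all values the 10 most abundant channel genes, every called one, 11 textbook members and those at 0 throughout. It also took elt-2 and at most 4 called genes of each other list. Neuronal and muscle markers are given here without library values. Called intestinal, epidermal and germline markers other than elt-2 are counted but not named. Genes named outside this rule were chosen after their values were seen. Names of the other lists without a row under that symbol were not analysed here.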

Additional observations from a re-analysis of the deposited data

How the results depend on the processing

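Channel genes called lower numbered 4, and 7 with library size alone, 2 with DESeq2, 0 of 5 tested when every library needed 10 counts (none of the 4 was among the 5), 1 with an adjusted p under 0.05, 0 without both B libraries, and 0 to 8 when 1 library was left out. None was called higher in any setting. Genes of the 3 related lists called lower numbered 5, and 19 with library size alone, 14 without the top 3% of genes, 8 with DESeq2, 0 with an adjusted p under 0.05, 2 without both B libraries and 0 to 9 with 1 library left out; those called higher numbered 0, and 1 with DESeq2, 1 without both B libraries and 0 to 1 with 1 library left out. Tissue markers called lower numbered 10, and 29 with library size alone, 16 without the top 3% of genes, 3 with an adjusted p under 0.05, 3 without both B libraries and 0 to 13 with 1 library left out; those called higher numbered 8, and 4 with library size alone, 15 with DESeq2, 3 with an adjusted p under 0.05, 3 without both B libraries and 0 to 17 with 1 library left out. The log2 fold change of elt-2 ran from 2.80 to 5.24 with 1 library left out. Over all genes, calls were 1823 lower and 1489 higher, 6000 and 441 with library size alone, 3749 and 1084 without the top 3%, 1841 and 2148 with DESeq2, and 20 and 445 without elt-2 RNAi C.

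The replicate letters did not show as pairs in the counts, where deviations of libraries with the same letter correlated at -0.207 (A), -0.571 (B) and -0.0981 (C). Such correlations of deviations from a group mean cannot give whether cultures of a letter were handled together. With the letter as a replicate block, 1 channel gene (lgc-22, adjusted p = 0.0852), 1 gene of the related lists and 1 tissue marker were called lower, 0, 0 and 5 were called higher, the log2 fold change of elt-2 was 3.50, and 339 genes of the table were lower and 880 higher. The summed channel level had a mean within-letter log2 difference of -0.20 (exact sign-flip p = 0.5, smallest possible 0.25).

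Low counts limit these results: 63 of 76 detected channel genes did not pass the filter, which asks for enough reads in 3 libraries, a single read in a library labelled elt-2 RNAi weighs more than in control A, and each of the 4 calls was lost when at least 1 of the libraries was left out.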
